A study of Homo sapiens with 8 samples.

Results

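PECAM1, ALCAM, ICAM1, ICAM2, ICAM3, CD47 and SELPLG are 7 cell-surface molecules through which leukocytes adhere to other cells, and their transcripts are described here in the MOLM-13 leukemia line treated with 2 inhibitors. The members are the rows of the count table with these gene symbols, 7 of 26475, and each was read in all 8 libraries. PECAM1 and ALCAM head the set because they were selected on their expression values in these libraries (their level in each group and change against DMSO), so their levels and changes are given as a description without a test. The other 5 were taken by kind with earlier results of the same data known, so their tests describe single genes and support nothing about the set.

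The established line MOLM-13 models human acute myeloid leukemia driven by a KMT2A-AF9 fusion, and the labels give its genotype as WT. Bulk RNA was sequenced from 4 groups of 2 libraries, namely VTP50469 with WM1119 (the combination), VTP50469 alone, WM1119 alone, and the solvent DMSO as the control. VTP50469 is an inhibitor of the Menin-KMT2A interaction, and WM1119, which the labels spell WM119, is an inhibitor of the acetyltransferase KAT6A. The sources used here give no dose or duration and do not say if replicate libraries are separate cultures, so p-values measure only the spread between these libraries, which may be technical. All samples are 1 cell line, which limits them as a model of the disease.

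Leukocytes leave the blood by rolling on selectins, arresting through integrins that bind ICAMs, and passing between endothelial cells. SELPLG (PSGL-1) is the mucin that presents sugar ligands to P-selectin, ICAM1, ICAM2 and ICAM3 are immunoglobulin-type ligands of the leukocyte integrins, and PECAM1 (CD31) binds itself on a neighbouring cell and carries inhibitory motifs in its cytoplasmic tail. ALCAM (CD166) binds itself and CD6 on lymphocytes, and CD47 binds SIRPA on macrophages, which restrains phagocytosis.

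The members lie on 4 chromosomes of the hg38 assembly in the GENCODE 44 annotation. PECAM1 (chr17:64319415-64413776, minus strand, 16 exons) and ICAM2 (chr17:64002594-64020634, minus strand, 5 exons) are 298780 bases apart with 2 coding genes, ERN1 and TEX2, between them. ICAM1 (chr19:10271093-10286615, plus strand, 7 exons) and ICAM3 (chr19:10333776-10339661, minus strand, 7 exons) are separated by 47160 bases that hold ICAM4 and ICAM5. ALCAM (chr3:105366909-105576900, plus strand, 16 exons) and CD47 (chr3:108043091-108091862, minus strand, 11 exons) share chromosome 3, and SELPLG (chr12:108621895-108633894, minus strand, 2 exons) is alone on chromosome 12. Sequencing counted reads over whole genes, so no exon, isoform or UTR was measured separately. ICAM2 overlaps the coding gene PRR29 on the opposite strand, and its expected counts are not whole numbers, so the split of reads between the pair is uncertain. PRR29 had between 8.20 and 18.1 expected counts per library.

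Promoter windows were available from the RefSeq table (GRCh38.p14, 250 bases before to 50 after an annotated start) for 4 of the 7 members, and 1 window each is shown for ICAM1, ICAM3, CD47 and ALCAM because the transcripts of the first 3 rose together in the combination. Capitals mark matches, on either strand, to the letters GGAAATTCC (an NF-kB site), GGAAGT (the core of ETS-family sites), GGGCGG (the GC box) and TATAAA (the TATA box). GAGGAAGT (a PU.1 site, which would hold the ETS letters) and TGTGGT (a RUNX site) were searched too, and neither was found in these windows.
ICAM1 promoter, chr19:10270870-10271169, plus strand: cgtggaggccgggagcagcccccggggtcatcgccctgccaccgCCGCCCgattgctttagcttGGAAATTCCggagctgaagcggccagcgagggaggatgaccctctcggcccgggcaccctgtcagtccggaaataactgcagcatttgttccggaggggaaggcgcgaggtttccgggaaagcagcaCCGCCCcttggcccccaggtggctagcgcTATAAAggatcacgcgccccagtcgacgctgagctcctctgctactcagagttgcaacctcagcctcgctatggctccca
ICAM3 promoter, first annotated start, chr19:10339575-10339874, minus strand: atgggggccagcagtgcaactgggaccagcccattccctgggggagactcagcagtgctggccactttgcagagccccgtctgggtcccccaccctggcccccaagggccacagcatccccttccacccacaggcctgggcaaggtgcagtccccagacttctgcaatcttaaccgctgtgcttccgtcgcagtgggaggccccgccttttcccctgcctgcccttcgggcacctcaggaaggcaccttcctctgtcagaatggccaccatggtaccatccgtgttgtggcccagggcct
CD47 promoter, chr3:108090982-108091281, minus strand: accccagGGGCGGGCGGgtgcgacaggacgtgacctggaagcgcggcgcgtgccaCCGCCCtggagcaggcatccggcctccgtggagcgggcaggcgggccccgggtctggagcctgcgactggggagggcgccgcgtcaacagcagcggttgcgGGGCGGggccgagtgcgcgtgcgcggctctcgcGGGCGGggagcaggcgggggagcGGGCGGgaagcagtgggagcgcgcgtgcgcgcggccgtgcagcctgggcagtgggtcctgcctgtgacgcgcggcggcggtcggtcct
ALCAM promoter, chr3:105366659-105366958, plus strand: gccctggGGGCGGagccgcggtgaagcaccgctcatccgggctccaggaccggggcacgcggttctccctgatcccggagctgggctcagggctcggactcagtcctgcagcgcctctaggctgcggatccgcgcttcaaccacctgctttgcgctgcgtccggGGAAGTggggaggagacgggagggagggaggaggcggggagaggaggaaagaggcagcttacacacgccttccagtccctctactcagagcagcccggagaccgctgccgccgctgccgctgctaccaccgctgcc
The ICAM1 window held the NF-kB letters from position -186 to -178 and the TATA letters from -30 to -25, counted with the annotated start as 0. Of the 35116 RefSeq windows of this length, 0.46% held the NF-kB letters and 11.53% the TATA letters. The GC box, present in 44.95% of all windows, occurred 6 times in the CD47 window, 2 times in the ICAM1 window on the minus strand and 1 time in the ALCAM window. ALCAM also had the ETS letters from -86 to -81, as did 22.79% of all windows. The first ICAM3 window held none of these letters, and another annotated ICAM3 start, not shown, had 2 GC boxes. PU.1 letters occurred in 2.59% and RUNX letters in 13.07% of all windows. A match is a description of the letters, and binding at these windows was not measured.

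Library totals ran between 18092906 and 23634468 expected counts. Combination replicate 2 stood apart, with 12972 genes with counts, against 14142 to 14544 in the other 7 libraries, and a normalization factor of 0.87, against 0.99 to 1.04. Its counts were also lower for longer transcripts (Spearman -0.558 across genes between transcript length and the log2 difference from the DMSO mean), with -0.142 in combination replicate 1 and -0.522 in WM1119 replicate 1. The results for the combination are therefore given with and without this library. The 10 myeloid markers of the line were all present, with summed CPM between 8420 and 11400 in the combination and between 1200 and 1220 in DMSO. LYZ (6370 and 8430 CPM in the combination, 541 and 598 CPM in DMSO) and MPO carried most of this sum, and FLT3 (144 and 82.2 CPM against 253 and 232 CPM), MEIS1 (10.8 and 2.85 CPM against 32.8 and 28.9 CPM) and HOXA9 (48.6 and 45.8 CPM against 66.2 and 66.3 CPM) were lower in the combination. Of 8 endothelial markers, a cell type known for PECAM1 and ICAM2, 5 were at 0 in all libraries, and their sum was 1.06 to 1.24 CPM in the combination, against 1.28 to 1.46 CPM in DMSO. Platelet and megakaryocyte markers, another source of PECAM1, summed to 3.27 to 4.71 CPM in the combination and 3.14 to 3.6 CPM in DMSO, with 2 of 7 at 0 in all libraries. T and NK markers summed to 33.2 to 84.3 CPM in the combination and 22.1 to 25.1 CPM in DMSO, which NKG7 largely carried (30.3 and 82.1 CPM in the combination). Of the defining T-cell genes, CD3E and CD3G were at 0 in all libraries, and CD3D was at 2.16 and 1.36 CPM in the combination and 4.49 and 2.85 CPM in DMSO. CD2, on the same list, went the other way, with 0.806 and 0.868 CPM in the combination and 0.0541 and 0 CPM in DMSO. B markers summed to 1.65 to 3.16 CPM in the combination and 0.758 to 0.759 CPM in DMSO, epithelial and stromal markers to 2.97 to 4.96 CPM and 1.24 to 1.99 CPM in the same order, and erythroid markers to 0 in both. The part of the T and NK, B and epithelial markers in the results was not tested. In bulk RNA, fewer cells of a type and less RNA per cell cannot be told apart.

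**Figure D1:**
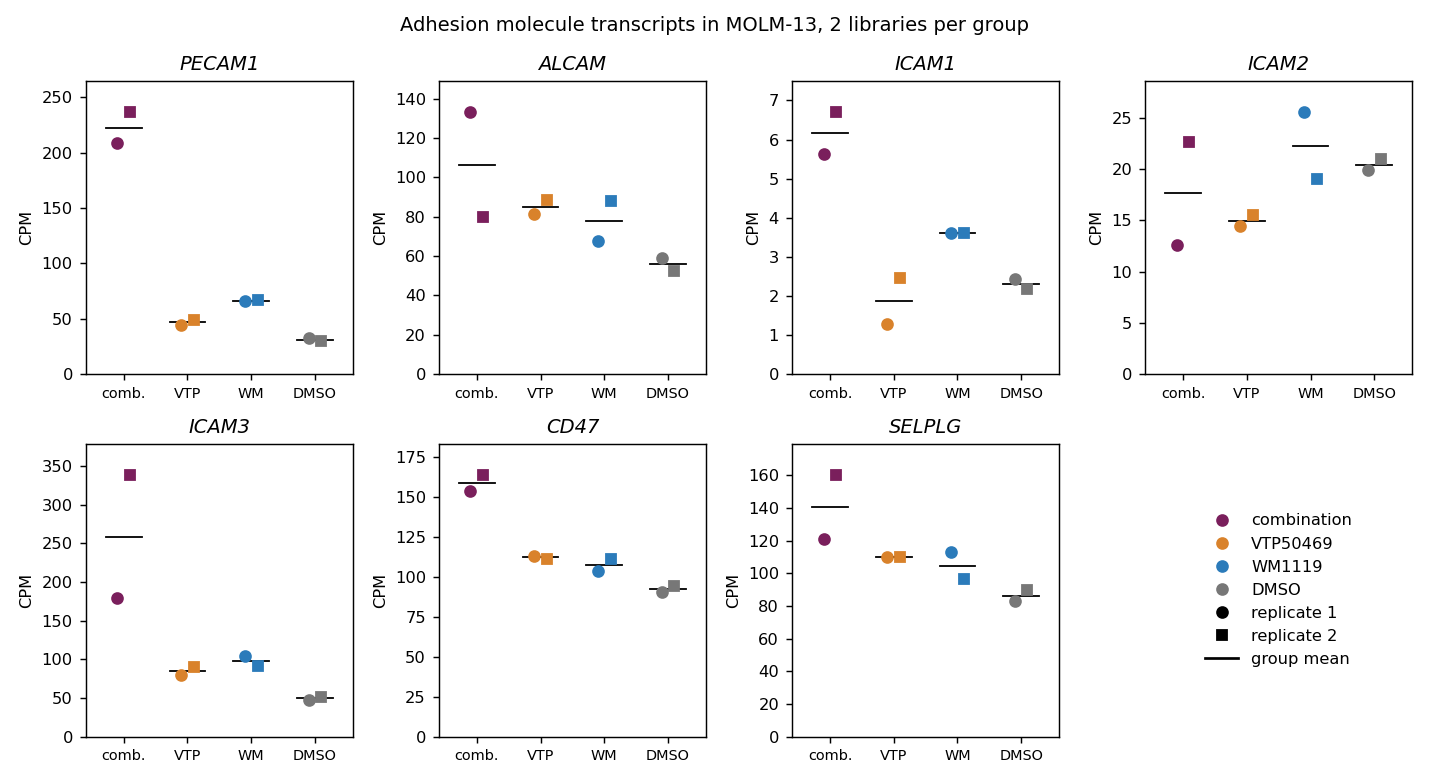
Level of each adhesion molecule in CPM (counts scaled to 1e+06 per library, y axis from 0, scaled per panel) in the 2 libraries of the combination, VTP50469, WM1119 and DMSO, with the line at the group mean. PECAM1 is at 208 and 236 CPM in the combination and at or below 66.9 CPM in every other library, while the ICAM2 libraries of the combination lie on both sides of DMSO.

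PECAM1 was the member with the largest difference between the combination and DMSO. It had 208 and 236 CPM in the combination, 44.7 and 48.7 CPM with VTP50469, 65.9 and 66.9 CPM with WM1119, and 32.5 and 29.5 CPM in DMSO, where CPM are counts scaled to 1e+06 per TMM-adjusted library. The groups did not overlap, and the order of levels was combination, WM1119, VTP50469, DMSO. Relative to DMSO, the mean was 7.17-fold higher in the combination (log2 change 2.84, SE 0.14), 1.51-fold higher with VTP50469 (0.59, SE 0.13) and 2.14-fold higher with WM1119 (1.10, SE 0.13). On the log2 scale the combination exceeded VTP50469 by 2.25 (SE 0.14) and WM1119 by 1.74 (SE 0.14). The combined change exceeded the sum of the 2 single changes by 1.15 (SE 0.19) on this scale, again as a description.

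ALCAM differed less, and its 2 combination libraries stood far apart. It had 133 and 79.8 CPM in the combination, 81.5 and 88.4 CPM with VTP50469, 67.7 and 87.9 CPM with WM1119, and 59.0 and 52.6 CPM in DMSO. All 6 treated libraries lay above both DMSO libraries, but the treated groups overlapped one another, and the lower combination value was the library that stands apart. The log2 change against DMSO was 0.93 (SE 0.26) in the combination, 0.61 (SE 0.26) with VTP50469 and 0.48 (SE 0.26) with WM1119. Without combination replicate 2 the first of these was 1.27, and without replicate 1 it was 0.50. In combination replicate 2 the 200 genes nearest to ALCAM in transcript length (4701 bases) had a median log2 difference from the DMSO mean of -0.49, and the 200 nearest to PECAM1 (6813 bases) had -0.63, against -0.06 and -0.05 in replicate 1. The difference between the combination and the sum of the single changes was -0.15 (SE 0.36) for ALCAM.

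**Figure D2:**
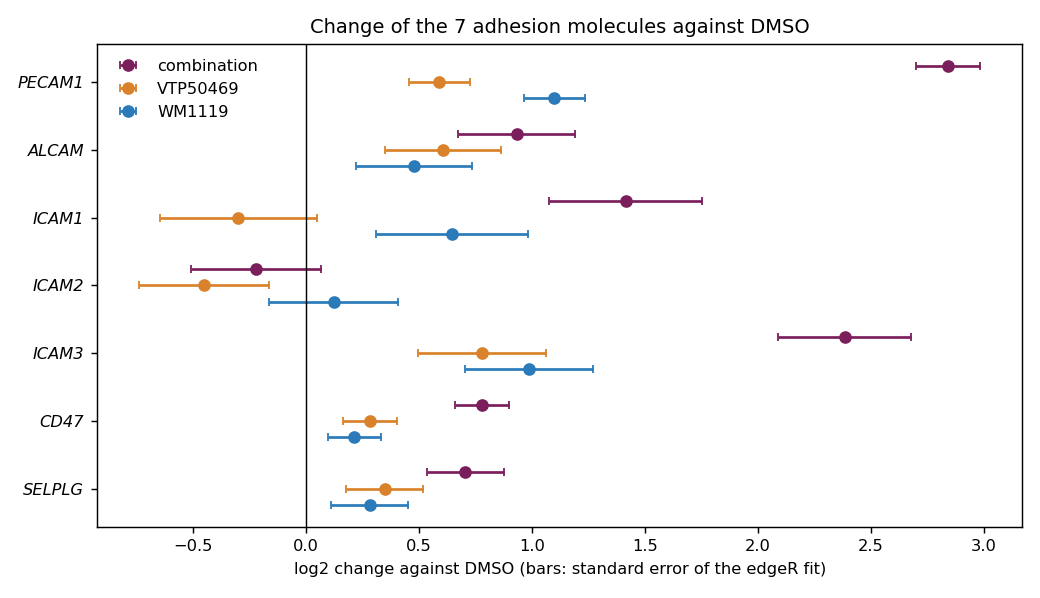
Log2 change of the 7 adhesion molecules against DMSO (x axis) for the combination, VTP50469 and WM1119, with bars for the standard error of the edgeR fit. PECAM1 at 2.84 and ICAM3 at 2.38 have the largest changes in the combination, and ICAM2 is at -0.22 in the combination, -0.45 with VTP50469 and 0.12 with WM1119.

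Of the 5 members beside PECAM1 and ALCAM, 4 rose in the combination against DMSO (ICAM1, ICAM3, CD47 and SELPLG) and 0 fell, by edgeR's quasi-likelihood test at a Benjamini-Hochberg adjusted p under 0.05 over 12401 genes. Over all genes tested, 9.29% passed in either direction, 5.85% higher and 3.44% lower. The median log2 change of the 5 was 0.78, against 0.01 over all genes tested. Both combination libraries lay above both DMSO libraries for the same 4, as they did for 29% of all genes, and since the members were chosen with these values known, nothing is read from this share. DESeq2 also called 4 of the 5, with 13.9% of 16403 genes called. The count depended on the libraries used, as did the share of all genes called. It was 4 without combination replicate 2 (14.5% of all genes called) and 4 without combination replicate 1, where 60.8% of all genes were called. It was 0 without either DMSO library (0.537% and 0.615%), 1 without either VTP50469 library (3.07% and 3.06%) and 2 without either WM1119 library (3.48% and 3.35%).

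Among the integrin ligands, ICAM3, the ICAM that leukocytes themselves carry at rest, rose most. It had 179 and 338 CPM in the combination, 79.9 and 90.3 CPM with VTP50469, 105 and 91.5 CPM with WM1119, and 48.1 and 51.0 CPM in DMSO. The combination libraries were above all others, although they differed 1.89-fold from each other, with the higher value in the library that stands apart. The rise against DMSO was 5.22-fold (log2 change 2.38, SE 0.29, edgeR adjusted p = 0.00672). Without combination replicate 2 the log2 change was 1.87 and without replicate 1 it was 2.76, both past the threshold, whereas leaving out a DMSO library or fitting only the groups compared took adjusted p as far as 0.103 in edgeR. The 200 genes nearest to ICAM3 in transcript length (1735 bases) had a median log2 difference of 0.52 in combination replicate 2. Against DMSO, ICAM3 changed by 0.78 (SE 0.28, edgeR adjusted p = 0.604) with VTP50469 and by 0.99 (SE 0.28, edgeR adjusted p = 0.700) with WM1119, neither past the threshold.

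ICAM1, the inducible ICAM of inflamed endothelium and activated leukocytes, was the least abundant member. It had 5.64 and 6.69 CPM in the combination, 1.28 and 2.46 CPM with VTP50469, 3.62 and 3.61 CPM with WM1119, and 2.44 and 2.18 CPM in DMSO. Both combination libraries were highest, both WM1119 libraries lay above DMSO, and the VTP50469 libraries lay on both sides of it. These levels rest on 26 to 133 counts per library. The combination was 2.67-fold higher than DMSO (log2 change 1.41, SE 0.34, edgeR adjusted p = 0.0477). This call was lost in 9 of 17 alternative settings, among them the omission of any DMSO, VTP50469 or WM1119 library, where edgeR adjusted p reached 0.278.

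ICAM2, a constitutive ICAM of endothelium and leukocytes, did not pass the test in any comparison of the 4-group fit. It passed for VTP50469 against DMSO, lower, when only the groups compared were fitted, and for the combination against VTP50469, higher, without combination replicate 1. It had 12.6 and 22.7 CPM in the combination, 14.4 and 15.5 CPM with VTP50469, 25.6 and 19.0 CPM with WM1119, and 19.9 and 21.0 CPM in DMSO. Only the VTP50469 libraries were on one side of DMSO, below it. The log2 change in the combination was -0.22 (SE 0.29, edgeR adjusted p = 0.606). It was -0.69 without combination replicate 2 and 0.14 without replicate 1, and in replicate 2 the 200 genes nearest in transcript length (1135 bases) had a median log2 difference of 0.84.

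CD47, the signal against phagocytosis, rose modestly with close libraries. It had 154 and 164 CPM in the combination, 114 and 112 CPM with VTP50469, 104 and 111 CPM with WM1119, and 90.5 and 94.6 CPM in DMSO. All treated libraries were above DMSO and the combination above all others, while those of the single inhibitors lay close together. The rise in the combination was 1.72-fold (log2 change 0.78, SE 0.12, edgeR adjusted p = 0.0129). The log2 change was 0.75 without combination replicate 2, 0.81 without replicate 1 and 1.18 with an offset for transcript length. In combination replicate 2 the 200 genes nearest in transcript length (5292 bases) had a median log2 difference of -0.59. The call was lost in 5 of 17 alternatives, among them the omission of any DMSO or VTP50469 library, with edgeR adjusted p up to 0.189.

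SELPLG, the selectin ligand, had 121 and 160 CPM in the combination, 110 and 110 CPM with VTP50469, 113 and 96.8 CPM with WM1119, and 82.8 and 89.6 CPM in DMSO. The combination libraries were above all others and every treated library above DMSO. The rise was 1.63-fold (log2 change 0.71, SE 0.17, edgeR adjusted p = 0.0488). The log2 change was 0.51 without combination replicate 2 and 0.88 without replicate 1. The call was lost in 11 of 17 alternatives, among them the omission of any DMSO, VTP50469 or WM1119 library.

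Against DMSO, 0 of these 5 genes passed with VTP50469 (0.169% of all genes did) and 0 with WM1119 (0% of all genes). At an unadjusted edgeR p under 0.05, ICAM3 and CD47 passed with VTP50469 (837 of 12401 genes did) and ICAM3 alone with WM1119 (612 of 12401 genes). DESeq2 called 0 of the 5 in both comparisons (1.24% and 0.5% of all genes). When only the groups compared were fitted, 3 of the 5 were called higher and 1 lower with VTP50469 (11.1% of all genes called), and ICAM3 was called higher with WM1119 (0.384%). Without either combination library ICAM3 was called with VTP50469 (3.26% and 3.30% of all genes) and with WM1119 (1.38% and 1.25%). The medians of the 5 were 0.28 with VTP50469 and 0.28 with WM1119 on the log2 scale, against 0.00 and 0.01 over all genes. In ICAM3, CD47 and SELPLG, 3 of the 5, all 6 treated libraries lay above both DMSO libraries, as in 11.4% of all genes tested, from which nothing is read since these values were known when the members were chosen. The 3 comparisons share the DMSO libraries, so their values are not independent of one another.

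Against the single inhibitors, 0 of the 5 passed in the main edgeR fit. ICAM3 passed against both with no count filter and with an offset for transcript length. Leaving out 1 library, its log2 change ran from 1.08 to 1.98 against VTP50469 and from 0.89 to 1.77 against WM1119. For the combination against VTP50469 (0.395% of all genes called) the log2 changes were 1.71 for ICAM1 (SE 0.34, adjusted p = 0.0966), 1.60 for ICAM3 (SE 0.29, adjusted p = 0.0793) and 0.50 for CD47 (SE 0.12, adjusted p = 0.124). DESeq2 called these 3 genes (4.17% of all genes). For the combination against WM1119 (1.43% called) they were 0.77 for ICAM1 (SE 0.33), 1.40 for ICAM3 (SE 0.28, adjusted p = 0.0794) and 0.57 for CD47 (SE 0.12, adjusted p = 0.0848), and DESeq2 called ICAM3 and CD47 (4.35% of all genes). At an unadjusted edgeR p under 0.05, 3 of the 5 passed in each of these comparisons. Of all 12401 genes tested, 2225 did so against VTP50469 and 2070 against WM1119. The interaction, the excess of the combined change over the sum of the single ones, had an edgeR adjusted p of at least 0.938 for the 5 genes, with log2 values between 0.07 for SELPLG and 1.07 for ICAM1. No gene of the table passed this test in the main edgeR fit (0% of all genes), and 273 had an unadjusted p under 0.05. DESeq2 called 5 (0.0305%), none of them among the 5 members tested. Leaving out 1 library, the ICAM3 interaction ran from 0.11 to 0.99.

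**Figure D3:**
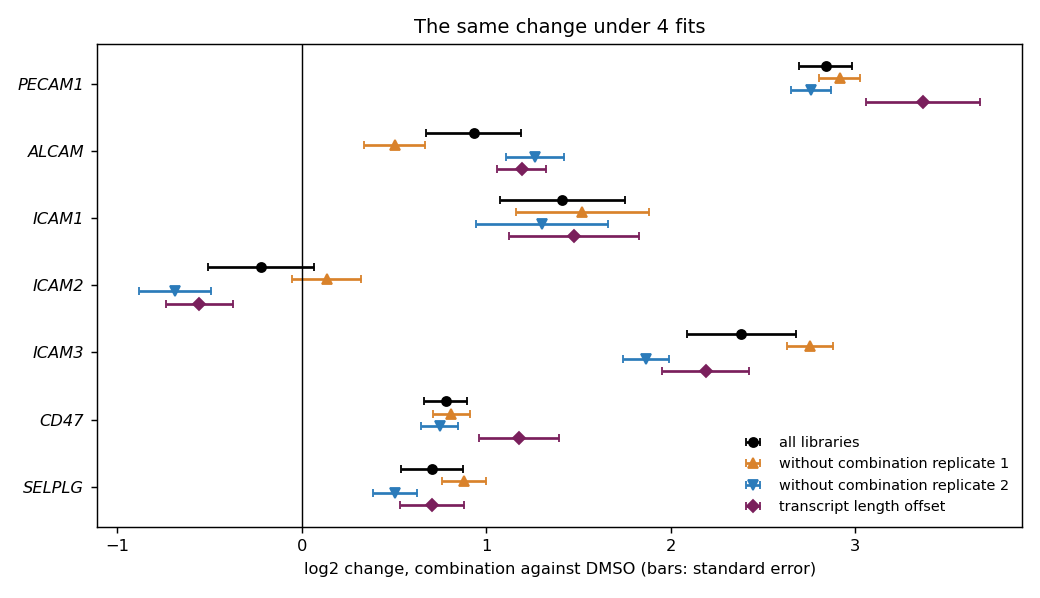
Log2 change of the 7 adhesion molecules between the combination and DMSO (x axis, bars for the standard error) in 4 fits, with all libraries, without either combination library, and with an offset for transcript length. PECAM1 stays between 2.76 and 3.37, whereas ALCAM spans 0.50 to 1.27 and ICAM2 crosses 0.

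Per kilobase of the canonical transcript, a scale that allows for transcript length, ICAM3 and SELPLG were the most abundant members and ICAM1 the least. The scale does not remove the length trend of combination replicate 2. In the combination ICAM3 averaged 149 CPM per kilobase, SELPLG 54.7, PECAM1 32.6, CD47 30.0, ALCAM 22.6, ICAM2 15.5 and ICAM1 2.08. The libraries of PECAM1 and CD47 overlapped there, as did those of ALCAM and ICAM2. In combination replicate 1 alone the order was the same. ICAM3 was at 103 in it, SELPLG at 47.1, PECAM1 at 30.6, CD47 at 29.1, ALCAM at 28.3, ICAM2 at 11.1 and ICAM1 at 1.90. In DMSO the order was SELPLG at 33.5 CPM per kilobase, ICAM3 at 28.6, ICAM2 at 18.03, CD47 at 17.5, ALCAM at 11.9, PECAM1 at 4.55 and ICAM1 at 0.778, with overlap between ICAM2 and CD47 only. PECAM1 thus held the third place in the combination and the sixth in DMSO.

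The molecules that bind the members were examined next, in a list of 19 counter-receptors and ligands, of which 9 were tested. In the combination 6 rose and 0 fell, with a median log2 change of 1.00. ITGAM, the alpha chain of Mac-1 that binds ICAM1, averaged 17.4 CPM in the combination and 1.62 CPM in DMSO (log2 change 3.42, SE 0.26, edgeR adjusted p = 0.00190). ITGAX, the alpha chain of the related integrin p150,95, averaged 9.34 and 1.17 CPM in these groups (2.99, SE 0.31, edgeR adjusted p = 0.00380). Their shared beta chain ITGB2 averaged 875 and 345 CPM (1.34, SE 0.15, edgeR adjusted p = 0.00459). CD38, a partner of PECAM1, averaged 16.6 CPM in the combination and 5.35 CPM in DMSO (1.64, SE 0.25, edgeR adjusted p = 0.0132). ITGAL, the alpha chain of LFA-1 that binds ICAM1, ICAM2 and ICAM3, averaged 433 and 454 CPM (-0.07, edgeR adjusted p = 0.773), and is named after its values were seen. Over all genes tested 9.29% passed in this comparison. Without combination replicate 2, 6 of 10 tested rose and 0 fell (14.5% of all genes called), and without replicate 1, 6 rose and 2 fell (60.8% of all genes called). Leaving out either DMSO library left 1 call.

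Other immunoglobulin-type adhesion molecules gave 5 that rose and 0 that fell among 27 tested, with a median log2 change of 0.26 (all genes 9.29%). Without combination replicate 2, where 14.5% of all genes were called, the counts were 7 and 1 of 29, and without replicate 1, where 60.8% were, 11 and 5 of 31. CD244 and CD48, a receptor and its ligand on leukocytes, averaged 29.2 CPM and 38.6 CPM in the combination, against 4.46 CPM and 6.18 CPM in DMSO (log2 changes 2.71 and 2.64, edgeR adjusted p = 0.00261 and 0.00353). F11R, a junctional adhesion molecule, averaged 61.1 CPM in the combination and 28.9 CPM in DMSO (1.08, edgeR adjusted p = 0.0129). CEACAM4, a granulocyte member of its family, was at 2.21 and 2.36 CPM in the combination and at 0 and 0.0949 CPM in DMSO (edgeR adjusted p = 0.0262), too few counts for a fold. The fifth, named after its values were seen, was the T-cell adhesion gene CD2 with 19 and 14 counts in the combination and 1 and 0 in DMSO.

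Selectins and mucin-type carriers, the class of SELPLG, had 0 of 8 tested genes past the threshold in edgeR, against 9.29% of all genes, with a median log2 change of -0.08. At an unadjusted edgeR p under 0.05 there were 2, beside 3759 of the 12401 genes tested, and DESeq2 called 1 of 11 (13.9% of all genes). Without combination replicate 2 the median log2 change was 0.05, and without replicate 1 it was -0.19. The lowest p belonged to CD44, a receptor of hyaluronan that also carries selectin ligands, at 124 CPM in the combination and 169 CPM in DMSO (-0.44, edgeR adjusted p = 0.111), and PODXL, a sialomucin, at 5.13 and 8.49 CPM (-0.72, edgeR adjusted p = 0.119).

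Among 23 tested cytoplasmic partners, which link the tails of the members to kinases, phosphatases and actin, 4 rose and 0 fell, with a median of 0.07, where 9.29% of all genes passed. The counts were 8 and 0 without combination replicate 2 (14.5% of all genes called) and 6 and 8 without replicate 1 (60.8%). The SRC-family kinase FGR averaged 29.2 CPM in the combination and 1.44 CPM in DMSO (log2 change 4.33, SE 0.31, edgeR adjusted p = 0.00181). The actin regulator VASP (0.61, edgeR adjusted p = 0.0273) and the integrin activator FERMT3 (0.82, edgeR adjusted p = 0.0334) rose less.

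Of 19 tested enzymes that shed or modify the members, 3 rose and 0 fell, with a median of 0.26, where 9.29% of all genes passed. They were 3 and 0 without combination replicate 2 (14.5% of all genes called) and 8 and 5 without replicate 1 (60.8%). QPCT averaged 11.1 CPM in the combination and 1.02 CPM in DMSO (log2 change 3.44, edgeR adjusted p = 0.00223). It forms pyroglutamate, and its relative QPCTL does so on CD47. QPCTL did not pass, at 31.2 CPM in the combination and 24.3 CPM in DMSO (0.35, edgeR adjusted p = 0.38). ST3GAL6, a sialyltransferase that acts on selectin ligands, averaged 26.7 CPM in the combination and 4.87 CPM in DMSO (2.45, edgeR adjusted p = 0.00284). MMP9, a gelatinase, averaged 4.87 CPM in the combination and 0.525 CPM in DMSO (3.18, edgeR adjusted p = 0.0434). This call was lost in 8 of 16 alternatives, among them the omission of combination replicate 2 or of any DMSO, VTP50469 or WM1119 library.

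Of 13 tested NF-kB subunits and feedback inhibitors, the pathway known to induce ICAM1, 3 rose and 0 fell, with a median log2 change of 0.02, beside 9.29% of all genes. Leaving out combination replicate 2 gave 4 and 0 of 14 (14.5% of all genes called), and leaving out replicate 1 gave 5 and 3 of 13 (60.8%). TNFAIP2, a gene induced by TNF rather than an inhibitor, averaged 49.4 CPM in the combination and 20.1 CPM in DMSO (log2 change 1.30, edgeR adjusted p = 0.00732), the subunit NFKB2 10.4 and 4.43 CPM (1.23, edgeR adjusted p = 0.0461), and the inhibitor NFKBIA 31.8 and 17.5 CPM (0.86, edgeR adjusted p = 0.0486). The inhibitor TNFAIP3, named after its values were seen, went the other way, at 22.6 and 41.8 CPM (-0.88, edgeR adjusted p = 0.0760). DESeq2 called 4 higher and 1, TNFAIP3, lower of 14 (13.9% of all genes called).

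Of 10 tested genes listed for phagocytosis signals beside CD47, 6 rose and 1 fell, with a median of 0.76, beside 9.29% of all genes. The list is not limited to signals that restrain phagocytosis, so its counts do not describe that class. Leaving out combination replicate 2 gave 7 and 1 (14.5% of all genes called), and leaving out replicate 1 gave 6 and 1 (60.8%). LILRB2, a receptor for MHC class I, averaged 7.16 CPM in the combination and 0.538 CPM in DMSO (log2 change 3.73, edgeR adjusted p = 0.00323). B2M, the light chain of MHC class I, averaged 1616 and 779 CPM (1.05, edgeR adjusted p = 0.0273), and the chaperone PDIA3 also rose (0.79, edgeR adjusted p = 0.0269). CLEC2D, the ligand of an NK-cell receptor, fell to 20.8 CPM in the combination, against 42.6 CPM in DMSO (-1.03, edgeR adjusted p = 0.0135). Across these 7 lists, leaving out either DMSO library left at most 2 calls in a list, and leaving out a VTP50469 or WM1119 library at most 4. With VTP50469 alone, 0 of the 108 tested list genes passed against DMSO in edgeR (0.169% of all genes), and with WM1119 alone 0 passed (0%). At an unadjusted edgeR p under 0.05 there were 20 with VTP50469 (837 of 12401 genes) and 13 with WM1119 (612 of 12401 genes). DESeq2, which tested 127 list genes, called 7 with VTP50469 (1.24% of all genes) and 2 with WM1119 (0.5%). These lists were written with earlier results of the data known.

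**Figure D4:**
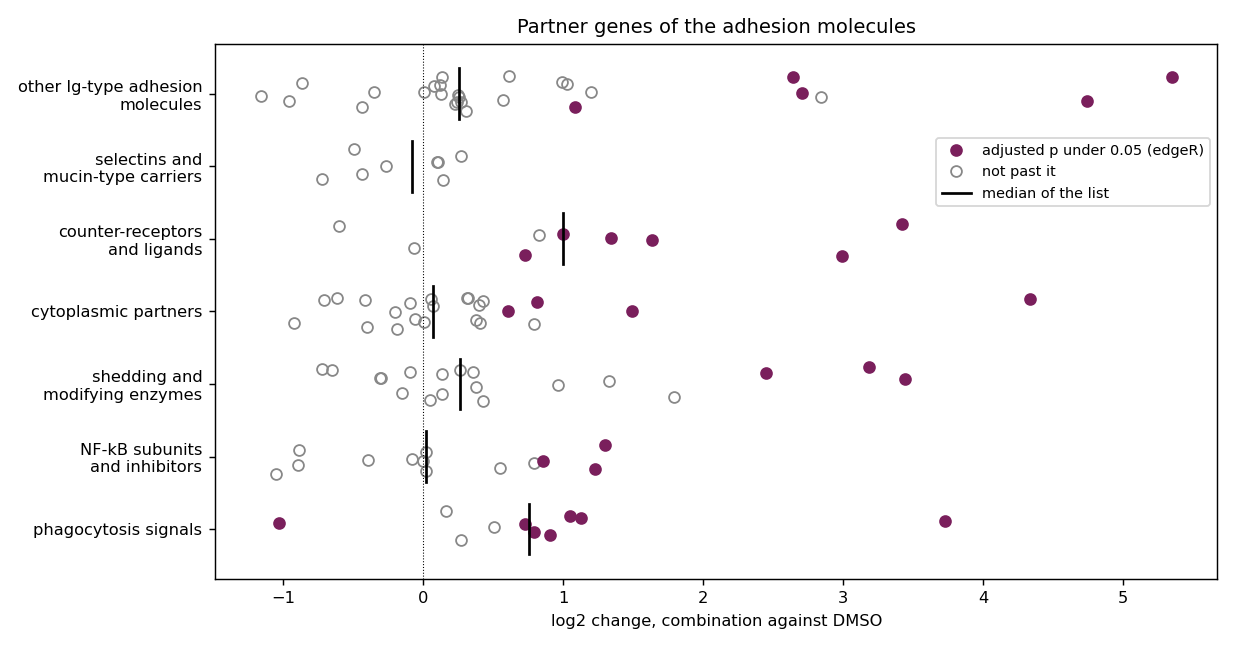
Log2 change between the combination and DMSO (x axis) of the tested genes in 7 lists of molecules related to the members, filled where the edgeR adjusted p is under 0.05, with a line at the median of each list. Counter-receptors have 6 filled points of 9 and a median of 1.00, selectins and mucin-type carriers have 0 of 8, and the far right points of the top row, CEACAM4 and CD2, are fitted values of genes at or near 0 in DMSO.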

How the data were processed

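MOLM-13 RNA was sequenced in 8 libraries as paired-end reads and mapped by the authors with STAR 2.5.1b to the hg38 assembly. The deposited table holds expected counts (estimated counts per gene symbol, not normalized). No counting tool, strand setting or annotation is named in the sources used here, and the labels and the paper name different RNA and library kits. Between 11.4% and 16.6% of the values above 0 per library are not whole, and all were rounded.

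The 4 groups were fitted in 1 model by the quasi-likelihood F test of edgeR 4.0.16 (R 4.3.3), with TMM normalization and the filterByExpr minimum, which kept 12401 of 26475 genes, with 4 residual degrees of freedom. CPM use TMM-scaled library sizes, and per-kilobase levels the canonical transcript in GENCODE 44. Each treatment was compared with DMSO and the combination with each inhibitor alone, and the interaction was tested. Alternatives were DESeq2 1.42.0, a fit restricted to the groups compared, a replicate block, robust dispersion, RLE factors, no normalization beyond library size, leaving the count filter out or raising it to 10 counts per library, and omitting each library. An offset for transcript length (loess, span 0.4, 92.1% of tested genes with a length) was chosen after seeing the data. The tests were also run on simulated counts with a common dispersion and no length trend, unlike these data, and nothing is concluded from that run. The members and lists were chosen with earlier results of these data known. Named genes are all members and the 5 genes most like PECAM1 and ALCAM in pattern over the 8 libraries. Of each list, at most 4 called genes with the lowest p in the combination are named. Where fewer than 2 were called, the 2 lowest are given by values. ITGAL, CD2, QPCTL and TNFAIP3 are named outside this rule. The values of 1 gene that this rule names are not reported here. Transcripts, not surface protein, were measured. Totals of 18092906 to 23634468 counts give the depth, and 2 libraries per group limit the precision.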

Additional observations from a re-analysis of the deposited data

How the results depend on the processing

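Counts of the list genes and the 5 tested members called together moved with the setting, and so did the calls over all genes. The causes were not tested. For the combination against DMSO 31 were called (1152 of all genes), with 18 under a replicate block (528 of all genes), 0 when only the groups compared were fitted (0, with 1964 at an unadjusted edgeR p under 0.05), and 5 to 74 when 1 library was left out. The 5 came without either DMSO library, with 69 and 79 of all genes called, and the 74 without combination replicate 1, with 7756 of all genes (60.8%) called. DESeq2 called 2288 of all genes and the length offset 2079. Against DMSO, VTP50469 gave 0, with 7 in DESeq2, 1 with library size only, 2 with no count filter, 31 with only the groups compared (1332 of all genes), 3 with the length offset, and 0 to 15 leaving out a library. WM1119 gave 0, with 2 in DESeq2, 2 with only the groups compared, and 0 to 8 leaving out a library. The combination against VTP50469 gave 4, with 20 in DESeq2, 9 with no count filter, 0 under the block, 0 with only the groups compared, 10 with the length offset, and 0 to 74 leaving out a library (0 to 7222 of all genes). The combination against WM1119 gave 8, with 20 in DESeq2, 4 under the block, 0 with only the groups compared, 18 with the length offset, and 0 to 69 leaving out a library (1 to 6915 of all genes). The interaction gave 0, with 0 in DESeq2 and 0 to 42 leaving out a library (0 to 3938 of all genes). Across genes, the difference between replicates 1 and 2 correlated between groups at -0.661 to 0.35. Each group has only 1 such difference, so this cannot decide if same-numbered libraries share an origin. Library size alone moved the median log2 change of all genes to -0.10, and 2 of the 5 tested members were then called. Over all genes, VTP50469 against DMSO gave 21 calls, with 204 in DESeq2 and 23 with library size only. It gave 50 with no count filter and 109 with the length offset. WM1119 against DMSO gave 0, with 82 in DESeq2 and 46 with only the groups compared. The combination gave 49 against VTP50469, with 684 in DESeq2, 148 with no count filter, 2 under the block and 237 with the length offset. Against WM1119 it gave 177, with 714 in DESeq2, 65 under the block and 463 with the length offset.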

Other observations

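The PECAM1 pattern over the 8 libraries was compared, by Pearson correlation of log2(CPM + 1), with 9603 tested genes averaging at least 5 CPM. This compares the pattern, not the level or the size of a change. The highest were EMILIN2 (r = 0.991), METTL9 (0.989), RNF31 (0.986), CD101 (0.985) and PPP1R18 (0.985). Without combination replicate 2 these genes ranked 2, 16, 17, 5 and 22 in this order. Their log2 changes in the combination were 0.50, 1.62, 0.25, 1.76 and 0.44 in this order, against 2.84 for PECAM1. Of these, METTL9 averaged 320 CPM in the combination and 104 CPM in DMSO, and CD101, an immunoglobulin-type molecule of myeloid cells, 13.3 CPM in the combination and 3.91 CPM in DMSO. In all, 99 genes had r above 0.95 with PECAM1 and 11 with ALCAM. For ALCAM the nearest were HDAC6 (r = 0.993), SLC44A1 (0.973), RSU1 (0.971), RCSD1 (0.969) and TPP1 (0.968). Without combination replicate 2 these genes ranked 1, 34, 26, 27 and 13 in this order. Their log2 changes were 0.47, 1.02, 0.30, 0.43 and 0.65 in this order, against 0.93 for ALCAM. SLC44A1, a choline transporter, averaged 254 CPM in the combination and 125 CPM in DMSO. Among the members, PECAM1 correlated with ICAM3 at 0.962, with CD47 at 0.958 and with ALCAM at 0.701, the last 0.891 without combination replicate 2. The points share 4 groups of libraries and their depth, and these correlations are descriptions without a test.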
